A study of Homo sapiens with 22 samples.

Results

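The AP-1 family and its relative ATF3 were followed across a series on the RNA-binding protein Staufen1 in colorectal cancer cell lines. The genes were chosen by symbol: FOS, FOSB, FOSL1, FOSL2, JUN, JUNB, JUND and ATF3. All 8 were found among the 58870 genes of the siRNA tables and the 57820 genes of the actinomycin D tables, and all 8 passed the filter on low counts (14073 and 17256 genes tested). LS180, a colorectal adenocarcinoma line that makes mucin, received a control siRNA (siCTRL, n = 2) or an siRNA against the Staufen1 gene (siSTAU1, n = 2) for a 72 h period followed by another of the same length. In a separate experiment LS180 and another colorectal carcinoma line, HCT116, were exposed to 5 µg/ml actinomycin D for 0, 2 or 4 h (n = 3 libraries for each line and time). Actinomycin D binds DNA and blocks transcription, so mRNA levels after it depend on how fast each mRNA is lost. The siRNA libraries were made from polyA RNA and the actinomycin D libraries from total RNA, and levels were not compared between them.

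AP-1 is a dimeric transcription factor built from FOS and JUN family proteins, which pair through a leucine zipper and bind DNA through a neighbouring basic region (bZIP). JUN proteins can pair with each other, whereas FOS proteins need a JUN partner. Many of these genes are immediate early genes, switched on within minutes by growth factors and stress, and their mRNAs are known for short lives, for which AU-rich elements in the 3′ untranslated region are one textbook determinant.

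Levels are counts per 1000000 (CPM) scaled by the TMM method, which sets libraries to a common scale over most genes. Library depth was 23.7 to 26.7 M counts in the siRNA and 47.8 to 61.4 M counts in the actinomycin D experiment (1 M is 1000000 counts). Changes are log2 fold changes with their standard error (SE) from edgeR's quasi-likelihood test, two-sided, with p-values adjusted over all genes tested, and a gene is called changed at an adjusted p under 0.05. After actinomycin D a level is relative to the transcripts that remain, so a change is not an absolute loss. The sources used here do not state that libraries came from separate cultures, so the p-values may reflect technical spread alone. STAU1 stood at 144 and 141 CPM with siCTRL and at 9.70 and 9.17 CPM with siSTAU1, 15.1-fold lower. Of 9 epithelial markers, 9 averaged at least 1 CPM in the siRNA groups, 8 in untreated LS180 and 6 in untreated HCT116, where CDX1 was at 0. The HCT116 libraries numbered 1 stood apart from the others of their groups at each time, with higher levels of JUN, JUNB, FOSL2, JUND and ATF3 and lower levels of FOSL1 than libraries 2 and 3. Among the LS180 libraries at 4 h, number 1 stood apart from numbers 2 and 3.

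FOS and FOSL2 carry the longer AU-rich motif TTATTTATT in their 3′ untranslated regions (UTRs). Those stretches are shown beside windows with 1 ATTTA match in FOSB, the member that rose after actinomycin D, and in JUND, which fell least of the JUN genes. The windows of JUN, JUNB, FOSL1 and ATF3, which all fell, likewise held 1 ATTTA match and no longer motif, and are not shown. The sequences are sense-strand 3′ UTR letters from GENCODE release 29 on GRCh38, with each ATTTA pentamer in capitals.
FOS, chr14:75282057-75282086, plus strand: ttgtgtttttaATTTATTTAttaagatgga
FOSL2, chr2:28416348-28416377, plus strand: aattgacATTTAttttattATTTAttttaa
FOSB, chr19:45473876-45473905, plus strand: tcctgctggagtgATTTAtactgtgaaatg
JUND, chr19:18279998-18280027, minus strand: tcgattctgccctATTTAtgtttctactcg

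Overlapping matches included, the FOS 3′ UTR held 5 ATTTA pentamers in 806 bases, and 7.56% of 3′ UTRs within 20% of its length held as many. JUNB held 2 in 500 bases (25.7% of UTRs of like length held as many), JUN 3 in 1287 bases (44.7%) and ATF3 3 in 1222 bases (43.3%). FOSL2 held 9 in 4864 bases, as many as 60.3% of UTRs of like length. FOSB held 3 in 2166 bases (68.9%), FOSL1 1 in 666 bases (62.3%) and JUND 1 in 681 bases (63.3%). The longer motif TTATTTATT, which overlaps ATTTA and was also searched on the sense strand, was found once each in FOS and FOSL2 and in no other member. Across 18891 protein-coding 3′ UTRs, 64.5% held ATTTA and 7.52% held the longer motif. These matches describe letters and not sites of action.

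With less STAU1, the JUN family rose and FOSL1 fell in LS180 cells. Of the 8 members, 4 were called higher and 1 lower, against 46.1% of all genes called (23% higher and 23% lower). Without siCTRL library 1 or 2 the genes called higher went from 3242 to 1968 and 2108. The median change of the members was 0.21, and that of all genes tested was 0.00. JUN, the founding member and a strong activator, stood at 25.6 and 25.2 CPM with siCTRL and at 44.2 and 46.7 CPM with siSTAU1. Its groups did not overlap, and it rose 1.79-fold (log2 fold change 0.84 with an SE of 0.06; adjusted p = 1.68e-06 by edgeR). JUND, the member expressed most steadily in resting cells, rose from 63.5 and 64.6 to 93.5 and 94.6 CPM, a change larger than the spread in either group (log2 fold change 0.55 with an SE of 0.04; adjusted p = 1.85e-06 by edgeR). JUNB, a weaker activator that can oppose JUN, rose from 60.6 and 60.6 to 73.0 and 74.2 CPM (log2 fold change 0.28 with an SE of 0.05; adjusted p = 0.0005 by edgeR). All 3 JUN genes were therefore higher in both siSTAU1 libraries than in both siCTRL libraries.

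FOSL1, which encodes FRA1, a FOS protein without the transactivation domain of FOS, moved the other way. It stood at 36.5 and 36.0 CPM with siCTRL and at 22.5 and 21.3 CPM with siSTAU1, with no overlap, and fell 1.65-fold (log2 fold change -0.73 with an SE of 0.07; adjusted p = 5.85e-06 by edgeR). FOSL2, which encodes the related FRA2, stood at 52.3 and 52.3 against 58.8 and 56.7 CPM. That difference passed narrowly (log2 fold change 0.14 with an SE of 0.05; adjusted p = 0.0474 by edgeR) and was not called in 7 of 10 alternative fits, among them each fit that left out 1 library (edgeR adjusted p 0.0538 to 0.214), so it is a call at the threshold.

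FOS, FOSB and ATF3 were not called. FOS, the classical serum-induced partner of JUN, stood at 10.7 and 9.15 CPM with siCTRL and at 9.42 and 11.02 CPM with siSTAU1, and the groups overlapped (log2 fold change 0.04, SE 0.11). FOSB stood at 1.77 and 2.21 against 1.68 and 2.09 CPM, also overlapping (log2 fold change -0.07, SE 0.25), on 42 to 53 reads per library. ATF3, a stress-induced bZIP factor that pairs with JUN proteins, stood at 3.51 and 3.09 against 3.97 and 4.54 CPM, and its groups did not overlap (log2 fold change 0.36 with an SE of 0.17; adjusted p = 0.0975 by edgeR). Among other cell types, fibroblast markers summed to 4.72 to 5.13 CPM with siCTRL and 15.3 to 16.8 CPM with siSTAU1 (2 of 6 averaging at least 1 CPM, COL1A2 at 0). Immune markers summed to 243 to 251 and 109 to 111 CPM (3 of 5, CD3E at 0, and PTPRC at 0 with siSTAU1). LS180 is a cell line and these sums rest on few genes, so they are not read as numbers of other cells. The part of these markers in the differences was not tested, and bulk RNA does not show which cells the reads came from.

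**Figure D1:**
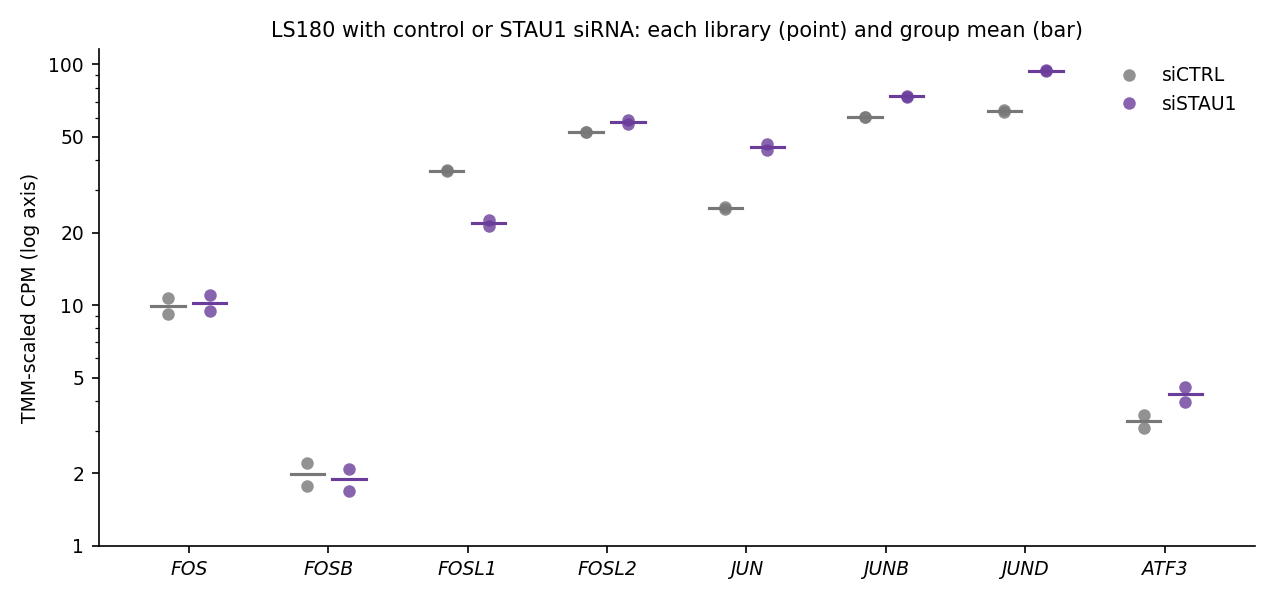
TMM-scaled CPM (log axis) of the 8 members in LS180 cells with control or STAU1 siRNA; points are libraries (n = 2 per group) and bars are group means. JUN moves from about 25.4 to 45.5 CPM on average and FOSL1 from 36.2 to 21.9 CPM, while the FOS and FOSB points of the groups overlap.

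Compared per transcript length in TPM (transcripts per 1000000, as deposited), JUND was the highest member with siCTRL (63.8 ± 3.32, SD, n = 2), followed by JUNB (48.8 ± 0.594) and FOSL1 (36.1 ± 1.23). FOSL2 (10.9 ± 0.198) and JUN (10.005 ± 0.0212) came next, then FOS (6.91 ± 0.707), ATF3 (2.73 ± 0.262) and FOSB (1.00 ± 0.346). No neighbours in that order overlapped between libraries. With siSTAU1, JUN (16.7 ± 0.141) stood above FOSL2 (11.3 ± 0.771), and the order was otherwise the same. The ratio of FOSL1 to FOSL2 in TPM was 3.28 and 3.36 with siCTRL and 1.79 and 1.81 with siSTAU1.

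Genes around the family moved both ways with less STAU1. Of 17 tested bZIP partners and relatives, none was called higher and 4 lower, at a median of -0.07. These were the stress factor ATF4 (log2 fold change -0.23), the antioxidant regulator NFE2L2 (-0.20), CREB1 (-0.27) and the small MAF protein MAFK (-0.17). Of 23 upstream kinases and regulators, 7 were called higher and 6 lower, at a median of 0.02. The JUN kinase gene MAPK9 rose by 0.41 and the ERK1 gene MAPK3 by 0.30 on the log2 scale, and among the ribosomal S6 kinases RPS6KA1 rose by 0.27 and RPS6KA3 fell by 0.23. Of 14 tested AP-1 target genes, 6 were called higher and 4 lower, at a median of 0.03. The chemokine CXCL8 rose from 24.6 to 65.6 CPM on average (log2 fold change 1.41 with an SE of 0.06; adjusted p = 2.18e-08 by edgeR) and the haem oxygenase HMOX1 from 13.1 to 23.5 CPM (0.84). PLAU, the urokinase gene, fell from 7.72 to 3.94 CPM (-0.97), and VEGFA, a vascular growth factor, from 75.9 to 60.9 CPM (-0.32). These counts stand beside the 46.1% of all genes called, and nothing particular to the lists is read from them.

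Untreated HCT116 and LS180 cells differed most in FOSL1 and ATF3. Of the 8 members, 3 were called higher and 2 lower in HCT116, against 76.3% of all genes called (33.7% higher and 42.6% lower). FOSL1 stood at 6.22, 5.94 and 5.46 CPM in LS180 and at 42.1, 55.6 and 55.4 CPM in HCT116, which is 8.68-fold higher with no overlap (log2 fold change 3.12 with an SE of 0.14; adjusted p = 2.56e-13 by edgeR). ATF3 stood at 3.79, 3.42 and 3.75 CPM in LS180 and at 21.9, 15.96 and 14.6 CPM in HCT116, 4.79-fold higher (log2 fold change 2.26 with an SE of 0.22; adjusted p = 1.85e-08 by edgeR). FOS was lower in HCT116, at 2.99, 2.82 and 3.31 against 5.18, 6.70 and 6.16 CPM (log2 fold change -0.98 with an SE of 0.16; adjusted p = 1.73e-05 by edgeR). Each of these 3 genes had libraries of the lines fully apart.

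The remaining members differed less between the untreated lines. JUND was 1.27-fold higher in HCT116 (edgeR adjusted p = 0.0367), a call lost when any 1 LS180 library or HCT116 library 1 or 3 was left out (0.0615 to 0.0909). JUN was 1.29-fold lower (log2 fold change -0.37; edgeR adjusted p = 0.0474), which ended in 11 of 16 alternatives, among them the loss of any 1 LS180 library or of HCT116 library 2 or 3 (0.0705 to 0.174) and scaling to ribosomal protein genes (-0.10; edgeR adjusted p = 0.61). FOSB was not called (log2 fold change 0.70 with an SE of 0.33; adjusted p = 0.0631 by edgeR) but was in 8 of 16 alternatives (0.00169 to 0.228 over all of them). FOSL2 and JUNB overlapped between the lines (log2 fold changes 0.05 and 0.01), and both were slightly negative without the HCT116 libraries numbered 1 (-0.045 and -0.082). Of all genes called, 44.2% were higher in HCT116, and 58.1% with ribosomal protein scaling, which moved the median of all genes from -0.10 to 0.17.

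In TPM the leading member of untreated LS180 was JUNB (11.4 ± 0.252, SD, n = 3), followed by JUND (7.56 ± 1.01), JUN (4.34 ± 0.393), FOSL2 (2.67 ± 0.203), FOSL1 (1.70 ± 0.217), FOS (1.42 ± 0.204), ATF3 (0.820 ± 0.108) and FOSB (0.0700 ± 0.0200). Only the FOSL1 and FOS libraries overlapped as neighbours. In untreated HCT116 the order began with FOSL1 (15.5 ± 1.63), JUNB (11.9 ± 2.13) and JUND (11.8 ± 1.55), which overlapped in turn. ATF3 (4.12 ± 1.25), JUN (3.503 ± 0.956) and FOSL2 (2.86 ± 0.278) followed, also overlapping in turn, then FOS (0.730 ± 0.0755) and FOSB (0.10 ± 0.036). FOSB was thus the lowest member in both lines before treatment.

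After actinomycin D, 7 members fell in both lines and FOSB rose. The family was chosen with that contrast between FOSB and the rest known, so the split is a description and supports nothing. In LS180, 7 of 8 were called lower and 1 higher at 2 h and again at 4 h, against 37.4% and 57.7% of all genes called (23.9% and 31.1% lower, 13.5% and 26.6% higher). In HCT116, 7 of 8 were called lower at 2 h (31% of all genes called, 17.1% lower and 13.8% higher), and 7 lower and 1 higher at 4 h (49.9% called, 23.7% lower and 26.2% higher). The members' median change was -1.78 at 2 h and -2.25 at 4 h in LS180 and -0.86 and -1.31 in HCT116. The median of all genes lay between -0.02 and 0.02. The 2 h and 4 h comparisons of a line share their 0 h libraries, and their values are given side by side.

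**Figure D2:**
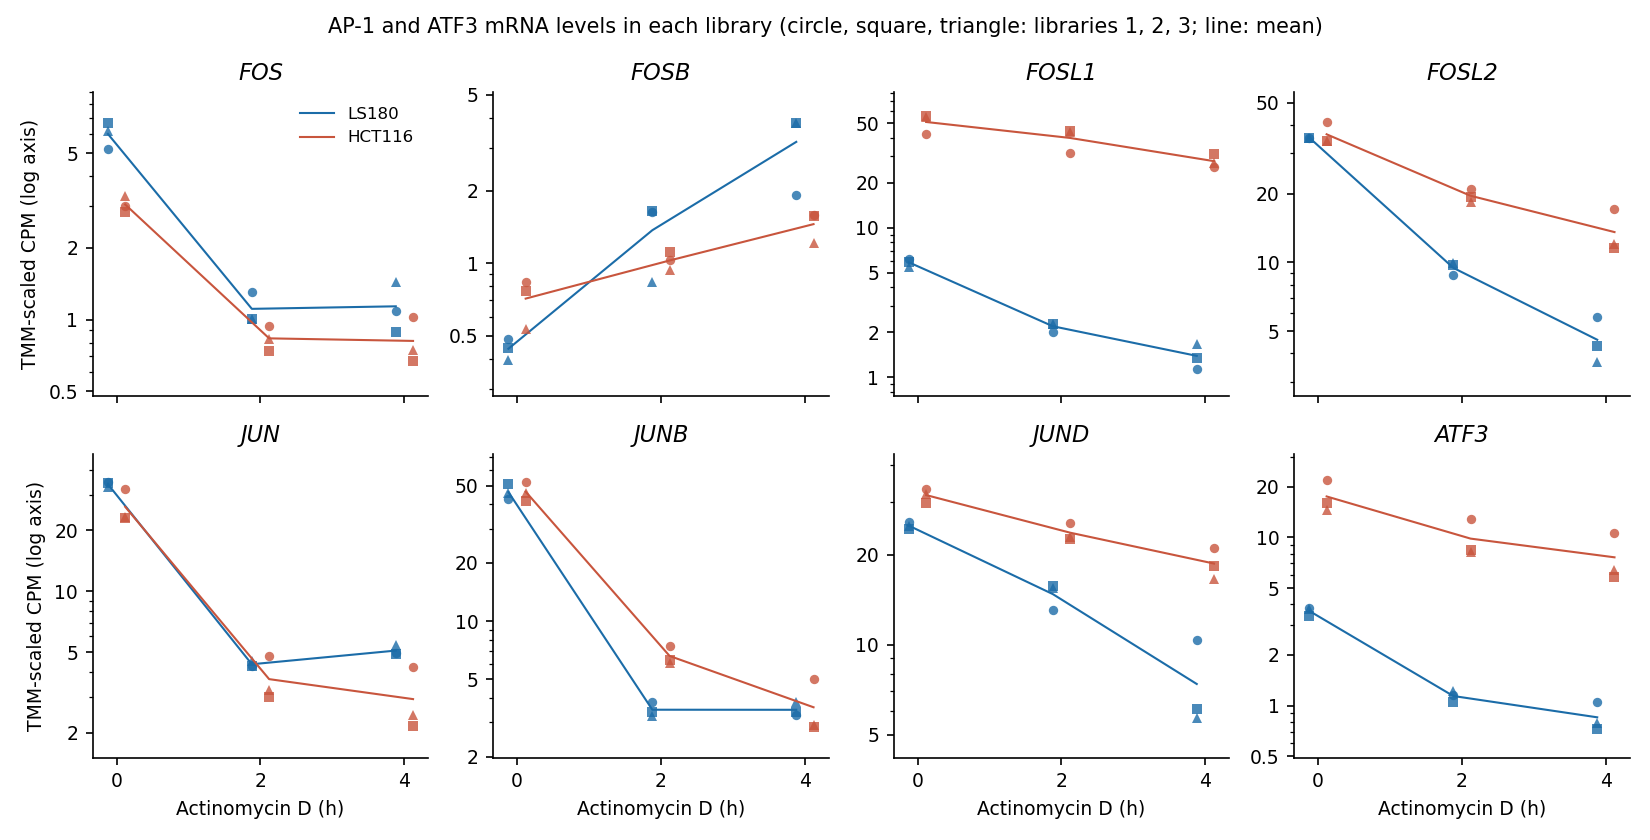
TMM-scaled CPM (log axis) of each member against hours of actinomycin D in LS180 (blue) and HCT116 (red); circles, squares and triangles are libraries 1, 2 and 3, and lines join group means. FOSB climbs in both lines, to 1.92, 3.81 and 3.81 CPM in LS180 at 4 h, while the other 7 members descend.

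FOSB encodes a FOS protein whose shorter splice form, ΔFOSB, is known for its stability in neurons. In LS180 it stood at 0.482, 0.447 and 0.395 CPM at 0 h, at 1.63, 1.64 and 0.831 CPM at 2 h and at 1.92, 3.81 and 3.81 CPM at 4 h. No library of an earlier time reached the lowest of a later one. These levels rest on 22 to 27 reads per library at 0 h and 101 to 189 at 4 h. The log2 fold change was 1.62 (SE 0.31) at 2 h and 2.84 (SE 0.30) at 4 h, and the 4 h value was 2.25 when only library 1 was kept in that group. The difference of 4 h from 2 h was 1.22 (SE 0.25), against 0.50 with library 1 alone.

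In HCT116, FOSB stood at 0.838, 0.767 and 0.532 CPM at 0 h, at 1.03, 1.11 and 0.934 CPM at 2 h and at 1.58, 1.56 and 1.21 CPM at 4 h. The times did not overlap, but the steps were smaller than in LS180. The log2 fold change at 2 h was 0.51 (SE 0.30) and did not pass the threshold (edgeR adjusted p = 0.21). With the replicate number as a block within each line it did (edgeR adjusted p = 0.0297). At 4 h the change was 1.01 (SE 0.29), and 0.62 when libraries were scaled to ribosomal protein genes. FOSB stayed higher at 4 h than at 0 h in both lines under all 17 alternatives run for each.

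FOSB lies at chr19:45467995-45475179, plus strand (GRCh38), wholly within the bounds of ERCC1, a DNA repair gene on the opposite strand. JUNB lies likewise wholly within HOOK2 on the opposite strand. HOOK2 stood at 24.5 ± 2.31 CPM (SD, n = 3) in LS180 at 0 h and 26.1 ± 4.55 CPM at 4 h. In HCT116 HOOK2 stood at 18.6 ± 2.14 and 24.5 ± 0.848 CPM, and its part in the JUNB counts was not tested. The libraries were stranded per the labels' protocols, but whether counting used the strand is not given in the sources used here, and without it reads of such pairs cannot be told apart. ERCC1 stood at 28.1 ± 1.04 CPM (SD, n = 3) in LS180 at 0 h and 34.6 ± 2.56 CPM at 4 h (log2 fold change 0.30), and in HCT116 at 41.6 ± 1.69 and 48.4 ± 0.303 CPM (0.22). In the same groups FOSB averaged 0.441 and 3.18 CPM in LS180 and 0.712 and 1.45 CPM in HCT116. ERCC1 thus changed less than FOSB in log2 terms and more in CPM. The part of ERCC1 in the FOSB counts was not tested.

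**Figure D3:**
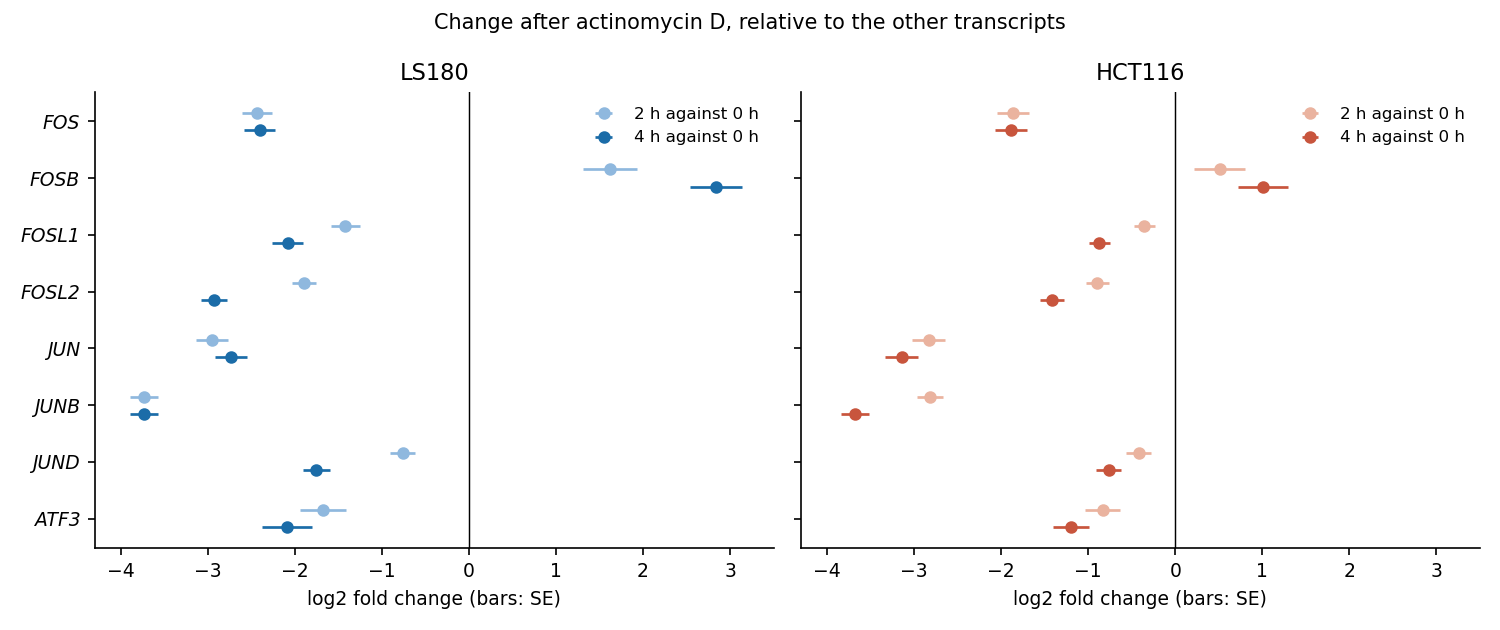
Log2 fold change (x axis, bars are SE) of each member at 2 h (pale) and 4 h (dark) of actinomycin D against 0 h in each line, n = 3 libraries per group. FOSB lies to the right of 0, up to 2.84 in LS180, and JUNB and JUN lie farthest to the left in HCT116, at -3.68 and -3.14 at 4 h.

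Among the FOS genes that fell, FOS had reached its low level in CPM by 2 h. In LS180 it stood at 5.18, 6.70 and 6.16 CPM at 0 h, 1.31, 1.01 and 1.01 CPM at 2 h and 1.09, 0.887 and 1.44 CPM at 4 h. The treated libraries were all far below the untreated ones and overlapped each other (log2 fold changes -2.43, SE 0.17, and -2.41, SE 0.18). In HCT116 it stood at 2.99, 2.82 and 3.31, then 0.939, 0.736 and 0.827, then 1.02, 0.672 and 0.746 CPM (-1.86, SE 0.19, and -1.89, SE 0.19). The FOS transcript length that RSEM assigned also moved, from 1858 to 1983 bases at 0 h to 1027 to 1252 bases at 2 h in HCT116. With the effective length as an offset the changes were smaller, -2.10 at 2 h and -1.58 at 4 h in LS180. In HCT116 they were -0.997 and -1.60. The difference of 4 h from 2 h was then 0.52 in LS180 and -0.60 in HCT116, called in neither. Whether FOS had levelled off by 2 h thus rests on the length used.

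FOSL2 fell step by step. It stood at 35.2, 35.0 and 35.2 CPM in LS180 at 0 h, 8.79, 9.71 and 9.89 CPM at 2 h and 5.77, 4.30 and 3.68 CPM at 4 h. The times were fully apart, at log2 fold changes of -1.89 (SE 0.14) and -2.93 (SE 0.15; edgeR adjusted p = 5.67e-12). In HCT116 it went from 41.2, 34.0 and 34.0 to 21.0, 19.3 and 18.5 and then to 17.2, 11.5 and 11.99 CPM (-0.90 and -1.42). FOSL1 fell from 6.22, 5.94 and 5.46 to 2.02, 2.28 and 2.28 and then to 1.14, 1.35 and 1.68 CPM in LS180 (-1.42 and -2.09). In HCT116 it remained the highest member in TPM, and went from 42.1, 55.6 and 55.4 to 31.8, 44.2 and 43.8 and then to 25.3, 31.3 and 27.1 CPM. Its 2 h libraries overlapped the untreated ones, and that call (log2 fold change -0.35; edgeR adjusted p = 0.0365) was lost in 5 of 17 alternatives, among them the loss of HCT116 0 h library 2 or 3 or 2 h library 1 (0.138 to 0.18), whereas the 4 h change of -0.87 (SE 0.12) held in all 17.

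JUNB had the largest fall of all members in LS180 at both times and in HCT116 at 4 h, level with JUN in HCT116 at 2 h. JUNB stood at 42.4, 50.7 and 45.9 CPM in LS180 at 0 h, 3.82, 3.40 and 3.24 CPM at 2 h and 3.26, 3.39 and 3.81 CPM at 4 h, which left 7.54% and 7.52% of the untreated level (log2 fold change -3.73 at both times). In HCT116 it went from 52.3, 41.7 and 45.6 to 7.44, 6.30 and 6.07 and then to 5.03, 2.85 and 2.90 CPM, leaving 14.2% and 7.79%. The 4 h levels thus came close to each other in the lines, though HCT116 was higher at 2 h. JUN stood at 34.6, 34.3 and 32.8 CPM in LS180 at 0 h, 4.27, 4.30 and 4.51 CPM at 2 h and 4.94, 4.92 and 5.42 CPM at 4 h (-2.96 and -2.73). In HCT116 it went from 32.2, 23.1 and 23.3 to 4.77, 3.02 and 3.25 and then to 4.201, 2.16 and 2.43 CPM (-2.83 and -3.14). Library 1 was the highest of its group for both genes at each time in HCT116.

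JUND fell least among the JUN genes. It stood at 25.7, 24.4 and 25.0 CPM in LS180 at 0 h, 13.1, 15.7 and 15.5 CPM at 2 h and 10.4, 6.07 and 5.70 CPM at 4 h (log2 fold changes -0.76, SE 0.15, and -1.76, SE 0.15). Library 1 at 4 h was well above the other two, and with it alone the 4 h change was -1.14. In HCT116 it went from 33.2, 29.97 and 32.0 to 25.6, 22.7 and 22.9 and then to 21.2, 18.3 and 16.6 CPM (-0.42 and -0.76). The 2 h call in HCT116 (edgeR adjusted p = 0.0328) was lost in 6 of 17 alternatives, among them the loss of 0 h library 1 or 3 or 2 h library 2 or 3 (0.076 to 0.0856). ATF3 fell from 3.79, 3.42 and 3.75 to 1.16, 1.05 and 1.22 and then to 1.05, 0.726 and 0.784 CPM in LS180 (-1.67 and -2.09). In HCT116 it went from 21.9, 15.96 and 14.6 to 12.8, 8.44 and 8.21 and then to 10.7, 5.77 and 6.40 CPM (-0.83 and -1.20), so that it stayed above its untreated LS180 level throughout.

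Between 2 h and 4 h the members split by how far they still moved. In LS180, FOSL2 (log2 fold change -1.04 with an SE of 0.15; adjusted p = 6.04e-05 by edgeR), JUND (-0.99, SE 0.16; edgeR adjusted p = 0.000105) and FOSL1 (-0.67, SE 0.20; edgeR adjusted p = 0.0187) fell further and FOSB rose further, which makes 3 called lower and 1 higher against 30.7% of all genes called (18.5% lower and 12.2% higher). FOS (0.03, and -0.29 with ribosomal protein scaling), JUN (0.22, and -0.10 with that scaling), JUNB (-0.00, and 0.0076 with RLE size factors) and ATF3 (-0.42) were not called. The FOSL1 call was lost without 2 h library 2 or 3 or 4 h library 1 or 2 (edgeR adjusted p 0.058 to 0.111). With only library 1 kept at 4 h, FOSL2 and JUND alone were called. In HCT116, JUNB (-0.86, SE 0.17; edgeR adjusted p = 0.0013), FOSL1 (-0.52) and FOSL2 (-0.52) fell further, 3 of 8 against 15.8% of all genes (11% lower and 4.85% higher). With the replicate number as a block within each line 7 of 8 were called, 6 lower and FOSB higher, and without the HCT116 libraries numbered 1 there were 5. The FOSL1 call was lost without 2 h library 2 or 3 (0.0536 and 0.0539), and the FOSL2 call without 4 h library 2 or 3 (0.0609 and 0.0596).

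The choice of scaling moved all genes together after actinomycin D. Scaling to ribosomal protein genes shifted the median of all genes at 4 h to -0.54 in LS180 and -0.33 in HCT116. Of the genes called, 46.1% were higher in LS180 at 4 h and 1.16% with that scaling, and 52.5% against 1.51% in HCT116. At 2 h the shares were 36.1% against 0.96% in LS180 and 44.7% against 0.83% in HCT116. For 4 h against 2 h they were 39.7% against 0.60% in LS180 and 30.7% against 1.3% in HCT116. RLE size factors gave 59.1% at 2 h and 56.7% at 4 h in LS180 and 41.1% for 4 h against 2 h in HCT116, and DESeq2 gave 59.8%, 56.4% and 49.4%. Total library size gave 22.4% and 22.7% in LS180 and 20.4% and 34.0% in HCT116, and for 4 h against 2 h 5.61% and 12%. Single libraries moved the counts of all genes too. Genes called higher in LS180 at 2 h went from 2329 to 4309 without 2 h library 2 and to 1478 without 0 h library 2. In HCT116 at 2 h they went from 2389 to 1052 and 1032 without 2 h library 2 or 3. For 4 h against 2 h in LS180 they went from 2106 to 1189 without 2 h library 3 and to 808 and 812 without 4 h library 2 or 3. For 4 h against 2 h in HCT116 they went from 837 to between 214 and 255 without library 2 or 3 of either time, and to 1270 without 4 h library 1. The counts of members called at 2 h and 4 h against 0 h were the same under ribosomal protein scaling as in the TMM fit, 7 lower in each comparison and FOSB higher in all but HCT116 at 2 h.

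The change of several members differed between the lines, tested as the change in HCT116 minus that in LS180. At 2 h, 3 of 8 were called, all in the direction of a smaller fall in HCT116, against 5.64% of all genes (5.24% in that direction and 0.394% in the other). They were FOSL1 (1.07, SE 0.21; edgeR adjusted p = 0.00286), FOSL2 (1.00, SE 0.19; edgeR adjusted p = 0.0026) and JUNB (0.91, SE 0.21; edgeR adjusted p = 0.0122). At 4 h, 3 were called in that direction and FOSB in the other, against 13.7% of all genes (12.3% and 1.33%). They were FOSL2 (1.51, SE 0.20; edgeR adjusted p = 3.56e-05), FOSL1 (1.21, SE 0.22; edgeR adjusted p = 0.000868) and JUND (0.99, SE 0.21; edgeR adjusted p = 0.00277). FOSB rose less in HCT116 (-1.83, SE 0.42; edgeR adjusted p = 0.00501).

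FOSL2 was called at both times in every alternative run, and FOSL1 at 4 h. With only library 1 kept in LS180 at 4 h, the JUND difference was 0.34 (edgeR adjusted p = 0.228) and the FOSB difference -1.27 (edgeR adjusted p = 0.0865). The FOSL1 call at 2 h was lost when HCT116 2 h library 2 or 3 was left out (edgeR adjusted p = 0.0504 and 0.051). The JUNB call at 2 h was lost without either of these (0.0713 and 0.0586) or without LS180 2 h library 2 (0.102). With the replicate number as a block within each line, ATF3 was called at 2 h (0.83; edgeR adjusted p = 0.00158) and at 4 h (0.87; edgeR adjusted p = 0.00102), and JUN at 4 h (-0.44; edgeR adjusted p = 0.0143). Without the block they stood at 0.84, 0.89 and -0.41. At 4 h the share of called genes with a positive difference was 90.3%, and 96.1% with ribosomal protein scaling. A positive difference can be a smaller fall or a larger rise in HCT116. That scaling moved the median of all genes to 0.21. The share was 77.1% with RLE size factors and 73.1% with DESeq2. The majority turned over without LS180 4 h library 1 (43.1%, with 2536 genes called in the direction of FOSB in place of 230) and with genes kept only where all libraries of some group reached 1 CPM (41.6%, with 1757). In both of these fits the same 4 members were called in the same directions. The share was 58.2% with no filter on low counts, 54%, 61% and 56.5% without HCT116 4 h library 1, 2 or 3, and 52.9% with only library 1 kept in LS180 at 4 h. The small share of all genes beside the FOSB call therefore rests on these choices. At 2 h the share was 93%, 78.2% with DESeq2, 66.3% with no filter and 67.3% with at least 1 CPM. It was 76.8% to 80.6% without LS180 2 h library 2 or HCT116 2 h library 2 or 3, and 365 to 384 genes were then called in that direction in place of 905.

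**Figure D4:**
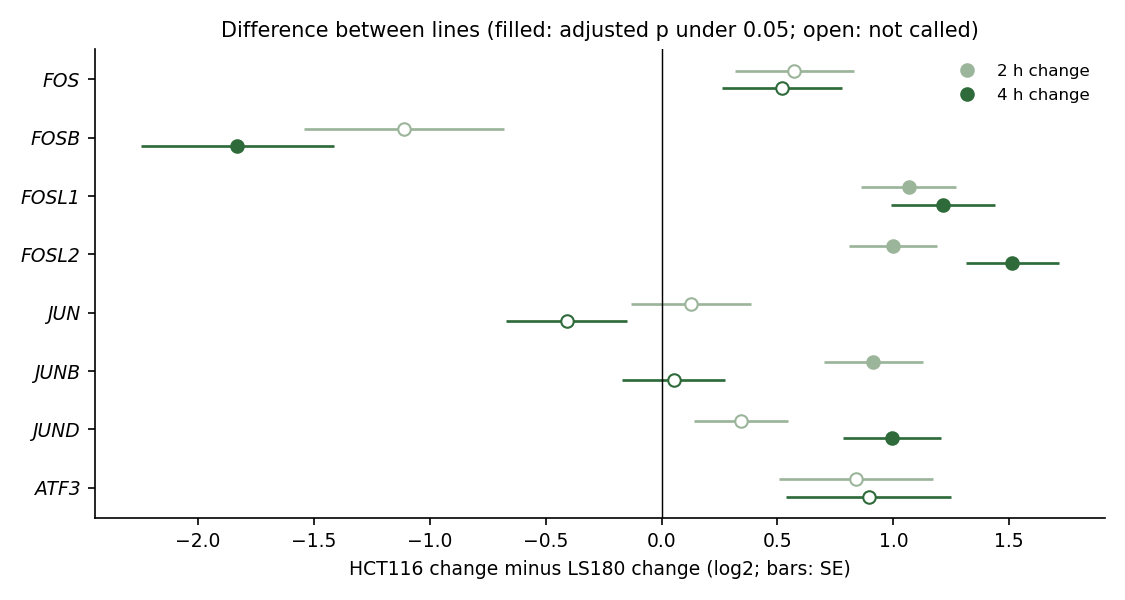
Change in HCT116 minus change in LS180 (log2, bars are SE) for each member at 2 h (pale) and 4 h (dark) of actinomycin D; filled points have an edgeR adjusted p under 0.05. FOSL1 and FOSL2 lie near or above 1 at both times, and FOSB lies at -1.11 and -1.83.

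The level of FOSB relative to FOS can be read within each library, where scaling between libraries plays no part. A rise of this ratio cannot tell a rise of FOSB from a fall of FOS. The contrast was known when the family was chosen, so the ratio is a description. The ratio of FOSB to FOS in TPM was 0.0588, 0.0318 and 0.0596 in LS180 at 0 h, 0.844, 0.871 and 0.469 at 2 h and 1.14, 1.73 and 1.00 at 4 h. In HCT116 it was 0.175, 0.138 and 0.0946, then 0.436, 0.500 and 0.308, then 1.04, 1.22 and 1.04. FOSB therefore went from the minor to an equal or higher gene of the pair in all 6 libraries at 4 h. TPM is deposited to 2 decimals, which is coarse at these levels. In counts the LS180 ratio was 0.0641 to 0.0931 at 0 h, 0.823 to 1.63 at 2 h and 1.77 to 4.30 at 4 h. In HCT116 the count ratio was 0.161 to 0.28 at 0 h, 1.09 to 1.51 at 2 h and 1.55 to 2.32 at 4 h. Counts thus put FOSB above FOS in HCT116 at 2 h, where TPM did not. The time at which FOSB passed FOS therefore rests on the length used. By TPM, FOSB ranked 4 of 8 in LS180 at 4 h (0.483 ± 0.0850), where its libraries overlapped those of the neighbours JUN and FOS. JUND led at 4 h in LS180 (1.76 ± 1.05), and FOSL1 (8.76 ± 0.960) and JUND (6.75 ± 0.699) led in HCT116.

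**Figure D5:**
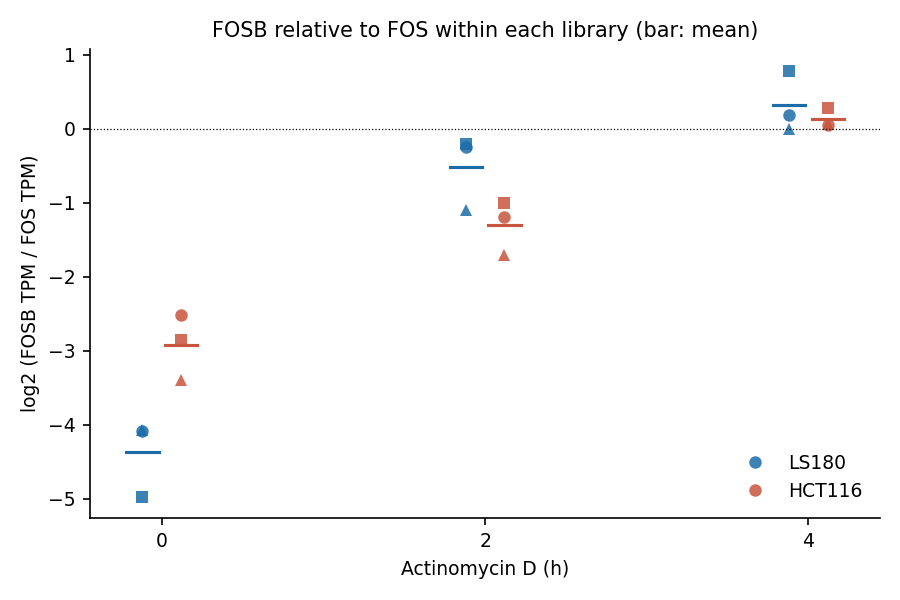
Log2 ratio of FOSB TPM to FOS TPM in each library against hours of actinomycin D; circles, squares and triangles are libraries 1, 2 and 3, bars are means and the dotted line marks equal levels. All untreated libraries lie below -2.5 and all 4 h libraries lie at 0 or above.

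Of the other bZIP genes, 19 were tested in the actinomycin D libraries. At 4 h in LS180, 13 were called lower and 2 higher (median -0.85), against 31.1% of all genes lower and 26.6% higher. In HCT116 10 were lower and 2 higher (median -0.35), against 23.7% and 26.2% of all genes. CEBPB, a C/EBP factor of inflammation and differentiation, fell from 19.0 to 2.61 CPM on average in LS180 and from 21.9 to 4.45 CPM in HCT116 (log2 fold changes -2.86 and -2.30). The small MAF genes MAFK (-3.34 and -2.12) and MAFG (-3.24 and -2.23), whose proteins pair with NFE2L2, fell in both lines. CEBPG (-1.75 and -0.80) and BACH1, a repressor of antioxidant genes (-0.77 and -0.99), also fell in both. In the line difference at 4 h 8 were called, all in the direction of a smaller fall in HCT116, against 12.3% of all genes in that direction, among them MAFF (1.63), MAFK (1.22), CEBPG (0.95) and CREB1 (0.50).

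Of 23 upstream regulators, 13 were called lower and 7 higher in LS180 at 4 h (median -0.26), and 9 lower and 11 higher in HCT116 (median 0.06), against 57.7% and 49.9% of all genes called. FBXW7, which marks JUN protein for degradation, fell by 1.38 and by 1.48 on the log2 scale. The kinase gene MAP3K1 fell by 1.81 and by 1.48, and MKL1, an SRF coactivator, by 2.19 and by 1.38. MAPK14, the p38 kinase gene, fell by 0.65 in LS180 and by 0.31 in HCT116, and MAPK7 fell by 1.39 and by 1.01. Of 18 AP-1 target genes, 8 were called lower and 3 higher in LS180 (median -0.13) and 5 lower and 1 higher in HCT116 (median -0.07), shares near or below the 57.7% and 49.9% of all genes called. VEGFA fell from 83.1 to 16.5 CPM in LS180 and from 30.3 to 4.96 CPM in HCT116, and HBEGF, a growth factor for the EGF receptor, from 4.25 to 0.762 and from 8.12 to 1.31 CPM. HMOX1 fell by 1.48 in LS180 and by 0.57 in HCT116, a difference called between the lines (0.91; edgeR adjusted p = 3.36e-05). IL8, the older symbol of CXCL8, fell in LS180 and HCT116 (log2 fold changes -2.41 and -1.20), and the urokinase receptor gene PLAUR fell by 0.46 and by 0.35.

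Likeness was measured as Pearson's r of log2 CPM over the 18 actinomycin D libraries, among 12937 genes averaging at least 1 CPM. These libraries share lines and times, so r is a description. The 5 genes most like FOS were PPP1R3D (0.98), HES1 (0.98), ZC3H12A (0.97), CISH (0.97) and OVOL1 (0.97), with log2 fold changes of -3.87 to -2.67 in LS180 at 4 h. Among the members, JUN (0.97) and JUNB (0.91) were most like FOS, and FOSL1 was near 0 (-0.00). The 5 most like FOSB were the pseudogene RPL21P75 (0.93, which may share reads with its parent gene), KPNA4 (0.93), SMPDL3B (0.93), GSR (0.93) and TAF13 (0.93), whose log2 fold changes in LS180 at 4 h were 0.32 to 0.84, far below that of FOSB. FOSL2 (-0.90) and JUND (-0.86) were the members most opposite to FOSB.

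Since JUN and FOS are textbook targets of bZIP factors themselves, the 200 bases before each start in RefSeq (GRCh38.p14) were searched on both strands for TGACTCA, TGACGTCA, TGACATCA and TGACGT, the last of which lies within the second. Of 8 members 7 had an entry. The match nearest the start is shown for JUN, FOS and FOSB, with the motif in capitals.
JUN, chr1:58784096-58784125, minus strand: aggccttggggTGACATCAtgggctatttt
FOS, chr14:75278752-75278781, plus strand: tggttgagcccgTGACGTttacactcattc
FOSB, chr19:45467924-45467953, plus strand: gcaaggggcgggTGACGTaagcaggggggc

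The matches begin 67 bases before the start in JUN, 64 in FOS and 60 in FOSB. ATF3, with windows at separate starts, also held TGACATCA at a single site. FOSL2 also held TGACGT, beginning 66 bases before the start. JUND, which fell too, held TGACGTCA, beginning 200 bases before the start at the edge of the window. It also held ACGTCA, which is TGACGT on the other strand, beginning 87 bases before the start. Of 35116 RefSeq windows of that length, 2.2% held TGACATCA, 6.32% TGACGT, 1.57% TGACGTCA and 3.54% TGACTCA. FOS and FOSL2, which fell after actinomycin D, and FOSB, which rose, thus share the same short motif at a like distance.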

How the data were processed

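The 22 deposited gene tables (4 siRNA, 18 actinomycin D libraries) were used as the authors made them. Per the submitters' processing notes, the tools were cutadapt, STAR 2.7 and RSEM 1.3.1, with build hg38 (siRNA libraries) or hg19 (actinomycin D libraries). The strand setting and annotation release were not found there. The deposited expected counts, which RSEM may split between genes, were rounded and tested with edgeR 4.0.16 (R 4.3.3; TMM, filterByExpr, quasi-likelihood F test, Benjamini-Hochberg over all genes, threshold 0.05). The siRNA fit held 4 libraries (2 residual degrees of freedom) and the actinomycin D fit 18 in 6 groups (12 residual degrees of freedom), for 10 comparisons in all. The SE is the size of the log2 fold change over the root of F. The authors' TPM served only for levels between genes, and the deposited effective lengths only as an offset in an alternative.

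The members and lists were chosen with earlier results of these data known. Named are the 8 members, STAU1, up to 4 genes of smallest adjusted p from each of 3 pathway lists, and the 5 genes most like FOS and FOSB (log2 CPM, prior count 2); ERCC1 and HOOK2, which overlap members, were added after their positions were seen. The main fits did not use the replicate number, so their tests are unpaired in both lines. Blocks on that number were run only as alternatives. In HCT116 the deviations of same-numbered libraries from their group means correlated at 0.23 to 0.63, every pair above 0.1. Only between 2 h and 4 h did every library correlate best with its own number. Pairing cannot be told apart from the libraries numbered 1 standing apart at each time. By the rule that every pair exceeds 0.1, replicate numbers did not pair the LS180 or siRNA libraries. Alternatives were RLE factors, DESeq2 1.42.0, other filters, a length offset, other scalings, blocks, only the groups compared, and each library left out. After seeing the data, fits without the HCT116 libraries numbered 1, without LS180 4 h libraries 2 and 3, and with a block within each line were added. Where this left 1 library in a group, its spread was taken from the other groups. The fits were tested on simulated data. Sequences came from GENCODE release 29 and RefSeq, both on GRCh38, matched by symbol.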

Additional observations from a re-analysis of the deposited data

Results flagged for a closer look

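Each of the following was singled out because the test of the difference between the lines (change after actinomycin D in HCT116 minus that in LS180) passed an edgeR adjusted p of 0.05. At 2 h these were FOSL1 at 1.07, FOSL2 at 1.00 and JUNB at 0.91. At 4 h they were FOSB at -1.83, FOSL1 at 1.21, FOSL2 at 1.51 and JUND at 0.99. The JUNB difference at 2 h was not matched at 4 h, where it was 0.05 (SE 0.22; -0.038 with RLE size factors). FOSB and JUND at 4 h were no longer called with only library 1 kept in LS180 at 4 h (-1.27 and 0.34).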

How the results depend on the processing

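Over the 10 comparisons, members kept direction and side of the threshold in 1260 refits, lost a call in 54, gained one in 36 and changed sign in 42, the last all among members not called. All 8 members were called in each alternative at 2 h and 4 h against 0 h in LS180 and at 4 h in HCT116. Where a count of members called moved by over 1.5 times, the cause was not tested. In LS180 at 4 h against 2 h it was 2 without LS180 4 h libraries 2 and 3. In HCT116 at 4 h against 2 h it was 5 with no filter on low counts, 5 without the HCT116 libraries numbered 1, 7 with the replicate block within each line and 2 to 5 with 1 library left out. Between untreated lines it was 3 to 4 with 1 library left out. For the line difference at 2 h it was 5 with no filter and 1 to 3 with 1 library left out, and at 4 h 2 without LS180 4 h libraries 2 and 3.

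The sign changes were mostly of values near 0; JUNB in the line difference at 4 h reached -0.43. With 1 library left out, siSTAU1 against siCTRL ranged over -0.24 to 0.090 for FOSB and -0.080 to 0.16 for FOS. In LS180 at 4 h against 2 h, FOS was -0.13 with total library size, -0.29 with ribosomal protein scaling and -0.026 without libraries 2 and 3 (-0.18 to 0.17 with 1 library left out). JUNB there was 0.0076 with RLE size factors, 0.0047 with DESeq2 and 0.021 with at least 1 CPM per group (-0.084 to 0.068), and JUN was -0.10 with ribosomal protein scaling. In HCT116 at 4 h against 2 h, FOS ranged over -0.23 to 0.072 with 1 library left out, and was -0.60 with the length offset. Between untreated lines, FOSL2 was -0.045 and JUNB -0.082 without the HCT116 libraries numbered 1, and JUNB was -0.0043 with the replicate block (FOSL2 -0.048 to 0.099, JUNB -0.085 to 0.083 with 1 library left out). In the line difference at 2 h, JUN was -0.025 with no filter and -0.027 with at least 1 CPM (-0.11 to 0.30). At 4 h, FOS was -0.014 with the length offset, and JUNB was -0.038 with RLE size factors, -0.040 with DESeq2, -0.10 with no filter, -0.13 with at least 1 CPM, -0.19 without the HCT116 libraries numbered 1 and -0.018 without LS180 4 h libraries 2 and 3 (-0.43 to 0.15).

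Same-numbered libraries did not deviate together in the siRNA (-0.04) or LS180 groups (-0.35 to 0.24). The replicate block left the count of members called at 5 for siSTAU1 against siCTRL, and called ATF3 in HCT116 at 4 h against 2 h (-0.38) and in the line differences (0.84 and 0.90); it changed no other call. Depth limits FOSB most, at 22 to 27 reads in untreated LS180.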

Other observations

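The abundance-weighted transcript length that RSEM assigned to FOSB was 2551 and 3253 bases in the siCTRL libraries and 3545 and 3701 bases in the siSTAU1 libraries, on 42 to 53 reads each. With the effective length as an offset the FOSB log2 fold change was -0.45 in place of -0.07, and it was called in neither fit. In HCT116 the FOSB length was 2929 to 3775 bases at 0 h and 2205 to 2590 bases at 4 h. The ratio of JUND to JUN in TPM was 1.66 to 1.82 in untreated LS180, 6.42 to 9.12 at 2 h and 4.23, 3.13 and 1.93 at 4 h, the last near the untreated ratio. In HCT116 it was 2.95 to 3.75 untreated, 13.8 to 19.4 at 2 h and 12.9 to 23.8 at 4 h.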
